A study of Mus musculus with 8 samples.

Results

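The expression of 8 genes that interstitial cells of Cajal use to make and spread their pacemaker current was followed in mouse cecal tumors: Ano1, Cacna1h, Cacna1c, Kcnk3, Slc12a2, Itpr1, Gja1 and Gjc1. They were taken by symbol from a table of 34586 gene symbols, and each of the 8 had 1 row there. The tumors model human gastrointestinal stromal tumors (GIST), sarcomas of the gut wall whose cells share a lineage with the interstitial cells of Cajal. RNA sequencing covered 4 tumors from the tamoxifen group and 4 from the vehicle group. Every mouse, in both groups, was of the C57BL/6 strain and carried 1 Kit allele with the V558Delta mutation, had both Etv1 alleles flanked by loxP sites, and was homozygous for CreERT2 at the Rosa26 locus. Tamoxifen activates CreERT2, so the comparison asks how tumors after Etv1 ablation differ from tumors with the floxed alleles intact. Rosa26 is active in most cell types, so recombination was not restricted to tumor cells. No tumor without floxed Etv1 was given tamoxifen, so the drug and the ablation cannot be told apart. The sources used here do not give dose, time after treatment or age. Values are FPKM, fragments scaled by the length of the transcript and by library size, so levels of different genes are per length.

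Interstitial cells of Cajal set the electrical rhythm of the gut wall. Calcium released from the endoplasmic reticulum through the inositol trisphosphate receptor (Itpr1) opens the calcium-activated chloride channel Ano1, and chloride then leaves the cell as an inward current. The cotransporter Slc12a2 keeps chloride inside the cell high. The T-type calcium channel Cacna1h helps the depolarization to start and travel, the L-type channel Cacna1c serves mainly in smooth muscle, and the two-pore potassium channel Kcnk3 helps hold the resting potential. Connexin 43 (Gja1) and connexin 45 (Gjc1) form gap junctions that pass the wave between cells. Ano1 is also a diagnostic marker of GIST.

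The 8 libraries resembled each other in depth: their relative depth, read from the steps between values of low genes, spanned a 1.43-fold range, at 0.812 to 1.10 with tamoxifen and 0.889 to 1.16 with vehicle relative to vehicle tumor 1, but absolute depth is unknown. Etv1, the targeted gene, measured 34.9, 19.7, 31.4 and 17.4 FPKM in tamoxifen tumors 1 to 4, against 34.6, 51.1, 40.4 and 38.6 FPKM in vehicle tumors 1 to 4. Tamoxifen tumor 1 thus lay inside the vehicle range (limma adjusted p = 0.13), and the single Etv1 row does not separate deleted from retained exons. The labels do not say whether tumors of a group were from different mice, and the p-values below therefore cover no more than tumor-to-tumor spread, which may be technical. In bulk tumors, fewer cells of a type and less RNA per cell cannot be told apart.

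The 8 genes spanned almost the whole range of expression. Gja1 stood highest, with 60 of 15023 tested genes above it, then Ano1 with 136 and Kcnk3 with 207 genes above. Gja1 and Ano1 did not overlap in level within either group, whereas the ranges of Ano1 and Kcnk3 overlapped in both. Within each single library, however, Kcnk3 was below Ano1, at 0.431 to 0.904 times its level. Slc12a2 followed where it was estimated, then Itpr1 and Gjc1. Cacna1h and Cacna1c were near the floor, with 84.5% and 90.6% of tested genes above them, and their ranges overlapped in both groups. Of the 8 genes, 7 passed the filter on low values, and none of these passed the test between groups. The background was 5.45% of tested genes called (limma adjusted p under 0.05), 2.38% higher and 3.07% lower, that is 358 and 461 genes. Scaling to the same total FPKM gave 154 and 75 genes, and median-ratio scaling 366 and 477. An unadjusted p under 0.05 was reached by 22.4% of tested genes and by 3 of the 7: Gja1, Itpr1 and Gjc1. In the same 3 genes the groups were fully separated, 2 with lower and 1 with higher values after tamoxifen. Such separation was seen in 15.1% of tested genes, lower in 7.74% and higher in 7.37%.

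**Figure D1:**
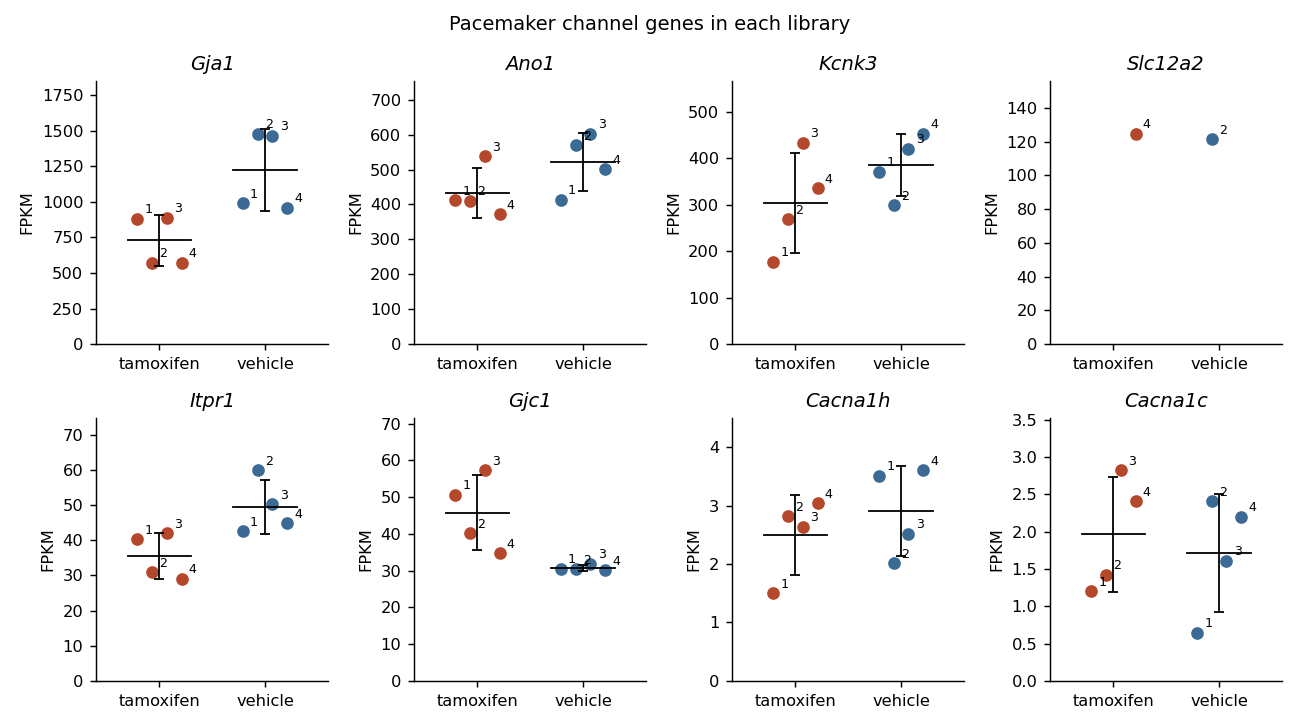
FPKM of the 8 pacemaker channel genes in each library (linear axes from 0), with tamoxifen tumors left of vehicle tumors. Numbers are replicates, and bars are the mean and SD of 4 libraries. Gja1 and Itpr1 lie below the vehicle range in the 4 tamoxifen tumors and Gjc1 above it, while Slc12a2 has 1 estimate a group.

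The gap junction genes had changes of opposite sign, neither past the threshold. Gja1, encoding connexin 43, lies on chromosome 10 (chr10:56097106-56110225, mm9). It measured 882, 571, 888 and 574 FPKM in tamoxifen tumors 1 to 4, against 989.6, 1479, 1466 and 958 FPKM in vehicle tumors 1 to 4. Every tamoxifen tumor was below the lowest vehicle tumor. The means were 729 ± 181 FPKM with tamoxifen and 1223 ± 288 FPKM with vehicle (SD, n = 4 each). On the scale of log2(FPKM + 1), the fold change was -0.75 (SE 0.24, 95% interval -1.29 to -0.21, limma adjusted p = 0.105), so the difference did not pass. The authors' own confidence bounds for single libraries were wide, from 153 to 2818 FPKM in vehicle tumor 2.

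Gjc1, encoding connexin 45 (chr11:102660893-102681014, mm9), had the opposite sign. It measured 50.7, 40.2, 57.3 and 34.7 FPKM in tamoxifen tumors 1 to 4, against 30.5, 30.4, 31.9 and 30.2 FPKM in vehicle tumors 1 to 4. Every tamoxifen tumor was above the highest vehicle tumor, and the vehicle tumors were nearly equal, with a coefficient of variation of 2.56% against 22.2% in the tamoxifen tumors. The means were 45.7 ± 10.2 and 30.8 ± 0.789 FPKM (SD, n = 4 each), with a log2 fold change of 0.53 (SE 0.16, 95% interval 0.17 to 0.89, limma adjusted p = 0.0905). Without tamoxifen tumor 4, the lowest of its group, Gjc1 passed (adjusted p = 0.0417).

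Because a ratio of both connexins within 1 library does not depend on scaling between libraries, it was also followed, a choice made after the values were seen. Gja1 was 17.4, 14.2, 15.5 and 16.5 times Gjc1 in tamoxifen tumors 1 to 4, against 32.4, 48.6, 45.9 and 31.8 times in vehicle tumors 1 to 4. The tamoxifen ratios were close together and far below the vehicle ratios. Connexin 43 still made up most connexin RNA: its share of the summed FPKM of 20 connexin genes was 90.8% ± 1.38 with tamoxifen and 95.8% ± 1.17 with vehicle (SD, n = 4 each). Connexin 45 made up 5.74% ± 0.461 with tamoxifen and 2.5% ± 0.526 with vehicle. Neither share overlapped between groups (exact 2-sided permutation p = 0.0286 each, the smallest that 70 arrangements allow). Both genes were already separated in opposite directions, so this outcome was largely given beforehand. The ratio and the 2 shares use the same values and are not separate observations. Shares of paralog families were compared for 7 genes, and these p-values are not adjusted. Of the 6 other connexins tested, none passed and 5 had a positive change, with a median log2 fold change of 0.11 against 0.01 over all tested genes. Gja4, encoding connexin 37, had the largest change of the tested connexins and was named after its values were seen. It ranged from 5.05 to 13.3 FPKM with tamoxifen and 2.06 to 3.89 FPKM with vehicle, without overlap (log2 fold change 1.18, SE 0.30, limma adjusted p = 0.0587). Over its alternatives, adjusted p for Gja4 ran from 0.0281 to 0.147, below 0.05 with a covariate for the block of identifier numbers a library falls in and with libraries weighted by quality (0.0458).

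Because the ablated gene encodes an ETS-family transcription factor, promoters are shown for Gja1 and Ano1, the most abundant of these genes. The 250 bases before the start of Gja1 and of Ano1 are given from RefSeq (GRCm38.p6). Promoter sequences matched for 3 of the 8 genes, the third being Cacna1c. Capitals mark the ETS core GGAA, or TTCC where it lies on the other strand. The Gja1 window is chr10:56377050-56377299 on the plus strand and the Ano1 window chr7:144738574-144738823 on the minus strand.
Gja1: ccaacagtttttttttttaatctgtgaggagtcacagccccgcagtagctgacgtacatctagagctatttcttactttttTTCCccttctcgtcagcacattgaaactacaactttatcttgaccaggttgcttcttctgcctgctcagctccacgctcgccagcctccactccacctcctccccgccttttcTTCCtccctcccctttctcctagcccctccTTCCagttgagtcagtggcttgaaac
Ano1: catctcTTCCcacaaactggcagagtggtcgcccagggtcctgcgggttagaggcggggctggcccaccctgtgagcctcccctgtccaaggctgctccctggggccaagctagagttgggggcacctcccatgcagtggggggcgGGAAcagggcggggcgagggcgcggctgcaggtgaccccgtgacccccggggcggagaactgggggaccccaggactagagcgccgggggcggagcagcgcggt
The Gja1 window holds 3 cores, each on the reverse strand, and the Ano1 window 1 on each strand. Both strands were searched, and 93.4% of 32851 promoter windows of this length hold a core. The longer form CGGAAG occurs in 13.6% of windows and in neither of these, and no binding was measured here.

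Ano1 (chr7:151774454-151937879, mm9), the chloride channel that carries the pacemaker current, measured 412, 411, 538 and 372 FPKM in tamoxifen tumors 1 to 4. The vehicle tumors 1 to 4 measured 414, 569.6, 603 and 501 FPKM. The groups overlapped, since tamoxifen tumor 3 was above vehicle tumors 1 and 4, and vehicle tumor 1 was level with tamoxifen tumors 1 and 2. The log2 fold change was -0.27 (SE 0.17, 95% interval -0.66 to 0.12, limma adjusted p = 0.396). Ano1 dominated its family, with 78.5% ± 1.90 of the summed anoctamin FPKM in tamoxifen tumors and 80.1% ± 0.792 in vehicle tumors (exact permutation p = 0.171, and 0.0286 without tamoxifen tumor 3). The phospholipid scramblase gene Ano6 came next at 66.0 ± 8.22 and 79.1 ± 13.3 FPKM. None of the 5 other anoctamins tested passed.

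**Figure D2:**
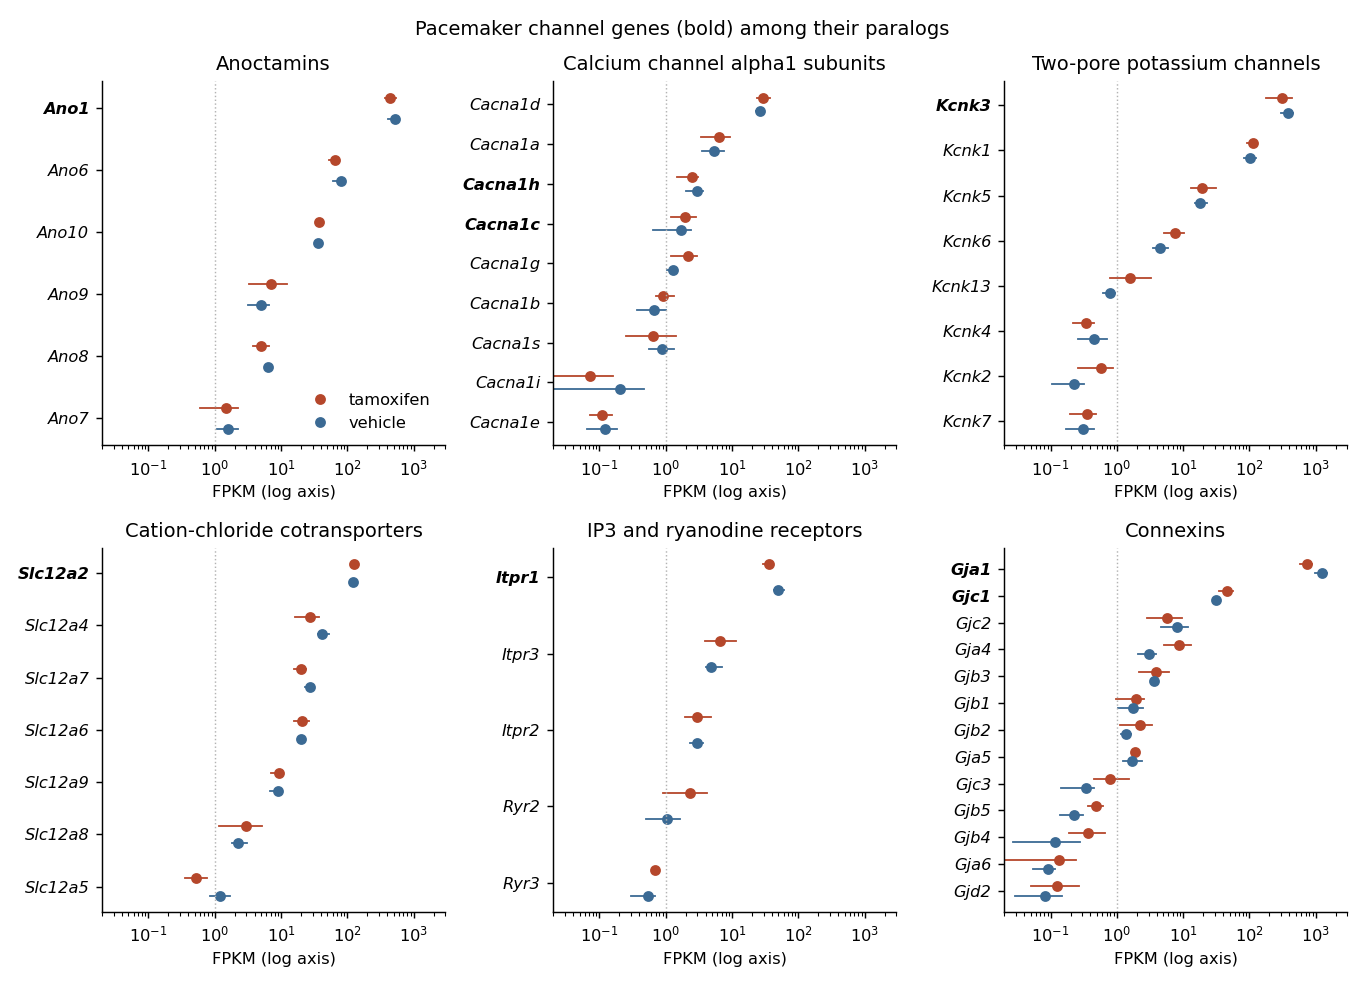
FPKM (log axis) of the pacemaker channel genes, in bold, and their paralogs with a mean of at least 0.1 FPKM. Points are group means and lines run from the lowest to the highest library (4 a group, 1 for Slc12a2), tamoxifen above vehicle. Values of 0 lie off the axis, and the dotted line is 1 FPKM. Ano1, Kcnk3, Slc12a2, Itpr1 and Gja1 top their panels, whereas Cacna1h and Cacna1c stand below Cacna1d.

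Itpr1 (chr6:108163112-108501103, mm9), the store channel upstream of Ano1, measured 40.3, 31.0, 42.0 and 29.0 FPKM in tamoxifen tumors 1 to 4, against 42.6, 59.9, 50.3 and 44.8 FPKM in vehicle tumors 1 to 4. The groups did not overlap, but the gap between tamoxifen tumor 3 and vehicle tumor 1 was narrow. The log2 fold change was -0.47 (SE 0.16, 95% interval -0.84 to -0.09, limma adjusted p = 0.14). Itpr1 made up 73.4% ± 6.26 of the summed FPKM of inositol trisphosphate and ryanodine receptors with tamoxifen and 83.7% ± 3.35 with vehicle, with no overlap (exact permutation p = 0.0286, the smallest possible). The gap was narrow, between 78.65% in tamoxifen tumor 1 and 79.37% in vehicle tumor 4. Leaving out a library cannot make separated groups overlap, so that was no further check. With any 1 library left out, the difference ran from -12.0 to -7.42 percentage points. The exact p was 0.0286 without tamoxifen tumors 1 or 3. It did not pass without tamoxifen tumors 2 or 4 or any 1 of the vehicle tumors (0.0571 to 0.0857). Groups of 3 and 4 libraries allow few arrangements, so p moves in coarse steps. These p-values therefore cannot show whether the difference rests on 1 library. The next receptor, Itpr3, measured 6.64 ± 3.25 and 4.84 ± 1.40 FPKM. None of the 3 other receptor genes tested passed, and neither did any of 12 tested genes for refilling the store or exporting calcium (median log2 fold change 0.04). The most abundant of these was Atp2a3, encoding the calcium pump SERCA3, at 380 ± 128 FPKM with tamoxifen and 437 ± 64.6 FPKM with vehicle (adjusted p = 0.571). Atp2a2, encoding SERCA2, measured 78.0 ± 7.19 and 62.6 ± 4.97 FPKM (adjusted p = 0.147) and had no overlap between groups, higher with tamoxifen.

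Slc12a2 (chr18:58038332-58106475, mm9), the sodium-potassium-chloride cotransporter NKCC1, could not be compared. Its estimate failed in 6 of 8 libraries, where the table lists it at 0 FPKM. The libraries with an estimate gave 125 FPKM in tamoxifen tumor 4 and 121 FPKM in vehicle tumor 2, with the authors' bounds at 54.1 to 195 and 54.1 to 188 FPKM. These values place it above the other cotransporters, of which Slc12a4 was highest at 27.7 ± 9.20 FPKM with tamoxifen and 41.5 ± 7.76 FPKM with vehicle (adjusted p = 0.198). None of the 5 other cotransporters tested passed, nor did any of 5 tested genes of the kinase pathway that switches them, led by Wnk1 (102 ± 20.3 and 117 ± 11.4 FPKM, adjusted p = 0.497).

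Kcnk3 (chr5:30890543-30927643, mm9), encoding the acid-sensitive background potassium channel TASK-1, measured 177, 269, 433 and 336 FPKM in tamoxifen tumors 1 to 4. The vehicle tumors 1 to 4 measured 371, 299, 421 and 453 FPKM. The groups overlapped widely, with tamoxifen tumor 1 lowest and tamoxifen tumor 3 above 3 of the 4 vehicle tumors. The log2 fold change was -0.40 (SE 0.27, 95% interval -1.02 to 0.22, limma adjusted p = 0.425), and -0.17 without tamoxifen tumor 1. Its share of two-pore potassium channel FPKM was 66.5% ± 8.0 with tamoxifen and 75.1% ± 6.51 with vehicle (exact permutation p = 0.143), a difference of -8.54 percentage points, or -4.57 without tamoxifen tumor 1. Kcnk1 came next at 115 ± 16.6 and 101 ± 19.3 FPKM (adjusted p = 0.556), and none of the 4 other two-pore channels tested passed.

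The calcium channel genes were low. Cacna1h (chr17:25506218-25570728, mm9) measured 1.5, 2.82, 2.64 and 3.04 FPKM in tamoxifen tumors 1 to 4, against 3.51, 2.01, 2.52 and 3.60 FPKM in vehicle tumors 1 to 4. Cacna1c (chr6:118542314-119171632, mm9) measured 1.2, 1.42, 2.82 and 2.41 FPKM in tamoxifen tumors 1 to 4, against 0.645, 2.41, 1.61 and 2.20 FPKM in vehicle tumors 1 to 4. Both overlapped between groups, with log2 fold changes of -0.16 (SE 0.21, 95% interval -0.64 to 0.32, adjusted p = 0.684) and 0.14 (SE 0.28, 95% interval -0.50 to 0.79, adjusted p = 0.803). Fold changes at this level are understated by the added 1 FPKM. The locus of Cacna1h overlaps the expressed gene Tpsg1, and that of Cacna1c overlaps Dcp1b and a U6 gene, so both values are uncertain.

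The voltage-gated calcium channel with the most RNA was Cacna1d, encoding the L-type channel Cav1.3, at 29.8 ± 5.72 FPKM with tamoxifen and 26.0 ± 2.09 FPKM with vehicle (adjusted p = 0.527). Within single libraries it stood 9.77 to 24.5 times above Cacna1c in tamoxifen tumors and 11 to 35.6 times in vehicle tumors. Cacna1a followed at 6.29 ± 2.39 and 5.26 ± 1.65 FPKM (adjusted p = 0.723). None of the 3 other alpha1 subunits tested passed, and none of 6 tested accessory subunits did. Among the accessory subunits, Cacnb2 measured 13.9 ± 5.01 and 6.09 ± 1.34 FPKM (log2 fold change 1.02, adjusted p = 0.0596) with no overlap. Cacnb3 measured 18.1 ± 5.46 and 27.5 ± 4.73 FPKM (log2 fold change -0.61, adjusted p = 0.161). Of the 6, 3 were higher with tamoxifen without overlap and 0 lower, beside 7.37% and 7.74% of tested genes. The others were Cacnb4 and Cacna2d1 (log2 fold changes 0.81 and 0.70, adjusted p = 0.0904 and 0.0963), named after their values were seen.

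The tested genes were also set against Kit, the receptor that marks these tumor cells. Kit measured 409, 386, 567 and 425 FPKM in tamoxifen tumors 1 to 4, against 542, 892, 871 and 734 FPKM in vehicle tumors 1 to 4 (log2 fold change -0.75, adjusted p = 0.0674). Gja1 overlapped between groups, at 1.35 to 2.16 times Kit in tamoxifen tumors and 1.30 to 1.83 times in vehicle tumors. Ano1 was 1.01, 1.07, 0.948 and 0.876 times Kit in tamoxifen tumors 1 to 4, against 0.763, 0.639, 0.692 and 0.682 times in vehicle tumors 1 to 4, without overlap. Gjc1 was 0.0818 to 0.124 times Kit with tamoxifen and 0.0341 to 0.0563 times with vehicle, also without overlap. Itpr1 was 0.0683 to 0.0986 times Kit with tamoxifen and 0.0578 to 0.0786 times with vehicle, and Kcnk3 0.434 to 0.791 times and 0.336 to 0.684 times. Cacna1h and Cacna1c, both under 0.01 times Kit, overlapped too. The overlap of Cacna1c was narrow, at 0.002945 to 0.005669 times Kit with tamoxifen and 0.00119 to 0.002994 times with vehicle. Kit itself was lower with tamoxifen, against a median log2 fold change of 0.01 over all tested genes. An unchanged gene therefore stands higher relative to Kit. In FPKM, Ano1 overlapped between groups, whereas Gjc1 was higher with tamoxifen without overlap. How many of all tested genes separate relative to Kit was not counted. The separation of Ano1 and Gjc1 therefore cannot be called particular to these genes. The order of Gjc1 and Itpr1 differed between groups in every library, since Gjc1 was 1.2 to 1.36 times Itpr1 in tamoxifen tumors and 0.508 to 0.716 times in vehicle tumors. These ratios were chosen after the values were seen and are given with no test.

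**Figure D3:**
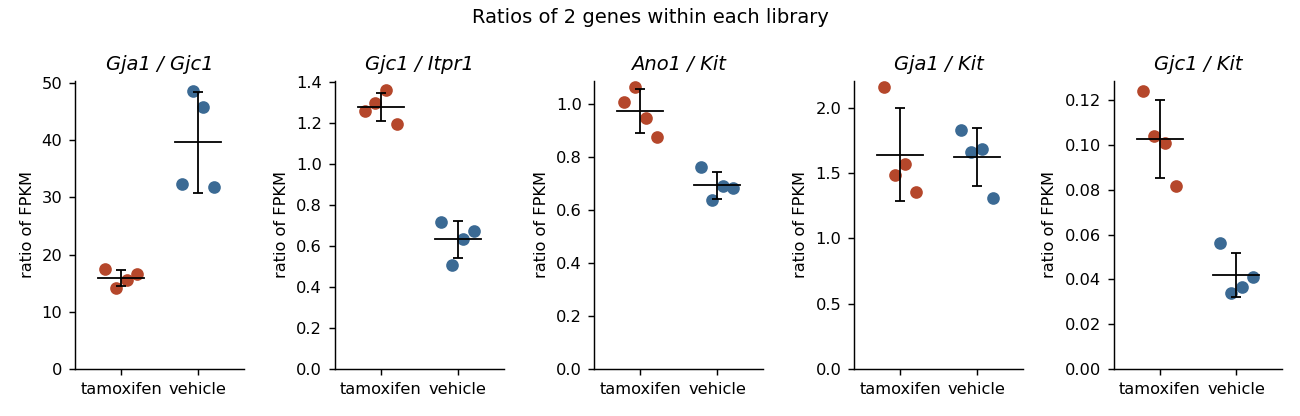
Ratios of the FPKM of 2 genes within each library (linear axes from 0), tamoxifen tumors left of vehicle tumors, with the mean and SD of 4 libraries. The ratio of Gja1 to Gjc1 is 14.2 to 17.4 in tamoxifen tumors and 31.8 to 48.6 in vehicle tumors. Ano1 and Gjc1 relative to Kit are higher in tamoxifen tumors, and Gja1 relative to Kit overlaps. The mean of Kit itself is lower with tamoxifen, and how many of all tested genes separate relative to Kit was not counted.

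Libraries of 1 group also differed from each other, and some of the genes varied together while others did not. After removal of the group means on the log2 scale, Itpr1 and Gja1 varied together across the 8 libraries (Pearson r = 0.932), and both followed Etv1 (r = 0.95 and r = 0.866). Gjc1 had r = 0.83 with Etv1, although its group difference had the opposite sign. This value rests mainly on the tamoxifen tumors. In vehicle tumors Gjc1 was nearly flat, at 30.2 to 31.9 FPKM, while Etv1 ran from 34.6 to 51.1 FPKM. Ano1 followed Kit most closely (r = 0.93), while Kcnk3 was nearer to Cacna1h (r = 0.725) than to Kit (r = 0.336). Cacna1h ran the other way from Itpr1, Gja1 and Etv1 (r = -0.781, -0.816 and -0.788), and Kcnk3 had r = -0.354 with Etv1. These are descriptions over 8 libraries that share library preparation and scaling, with no test. Across the 8 libraries without that removal, the genes with the most similar pattern were Ccdc6 and Wwc2 for Ano1 (r = 0.965 and 0.957) and Rgmb and Nt5c3l for Gja1 (0.987 and 0.982). They were Rgmb and Msrb3 for Itpr1 (0.983 and 0.982), Nfx1 and Las1l for Gjc1 (0.993 each), and Ctbp1 and Arap1 for Kcnk3 (0.992 and 0.99). For Cacna1h they were Fmnl3 and Bahd1 (0.993 and 0.958), and for Cacna1c Lsg1 and Srrm1 (0.968 and 0.954). Each pair was picked as the highest r among the tested genes over only 8 libraries, so high values come with the choice itself. Shared regulation was not tested.

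Of 9 genes through which transmitters reach pacemaker cells, 1 rose, 1 fell and 7 did not pass, with a median log2 fold change of -0.11. Over all tested genes, 2.38% rose and 3.07% fell. Tacr1, the neurokinin 1 receptor for substance P, fell. It measured 10.8, 8.98, 11.3 and 9.27 FPKM in tamoxifen tumors 1 to 4, against 23.1, 28.6, 29.1 and 32.7 FPKM in vehicle tumors 1 to 4 (log2 fold change -1.40, SE 0.13, limma adjusted p = 0.00463). Chrm2, the muscarinic M2 receptor for acetylcholine, rose, at 4.09, 3.19, 3.28 and 2.58 FPKM in tamoxifen tumors 1 to 4, against 0.991, 1.86, 1.11 and 1.48 FPKM in vehicle tumors 1 to 4 (log2 fold change 0.87, SE 0.17, adjusted p = 0.0285). Neither receptor overlapped between groups, which held for 15.1% of all tested genes. Scaling to the same total ended both calls (adjusted p = 0.0513 and 0.144), whereas with median-ratio scaling Chrm2 kept its call (0.0236). Chrm2 also lost its call without tamoxifen tumors 1 or 2 or vehicle tumors 1, 3 or 4 (up to 0.0894). Mrvi1, which couples cyclic GMP to the inositol trisphosphate receptor, measured 90.4 ± 14.9 and 102 ± 8.29 FPKM (adjusted p = 0.479), and the cyclic GMP phosphodiesterase Pde5a 84.1 ± 33.9 and 41.9 ± 5.01 FPKM (adjusted p = 0.092). Among 4 other tested conductances none passed, including the potassium channel Kcnh2 (55.3 ± 20.6 and 61.6 ± 15.9 FPKM) and the cation channel Trpm7 (49.5 ± 17.8 and 35.8 ± 6.73 FPKM).

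**Figure D4:**
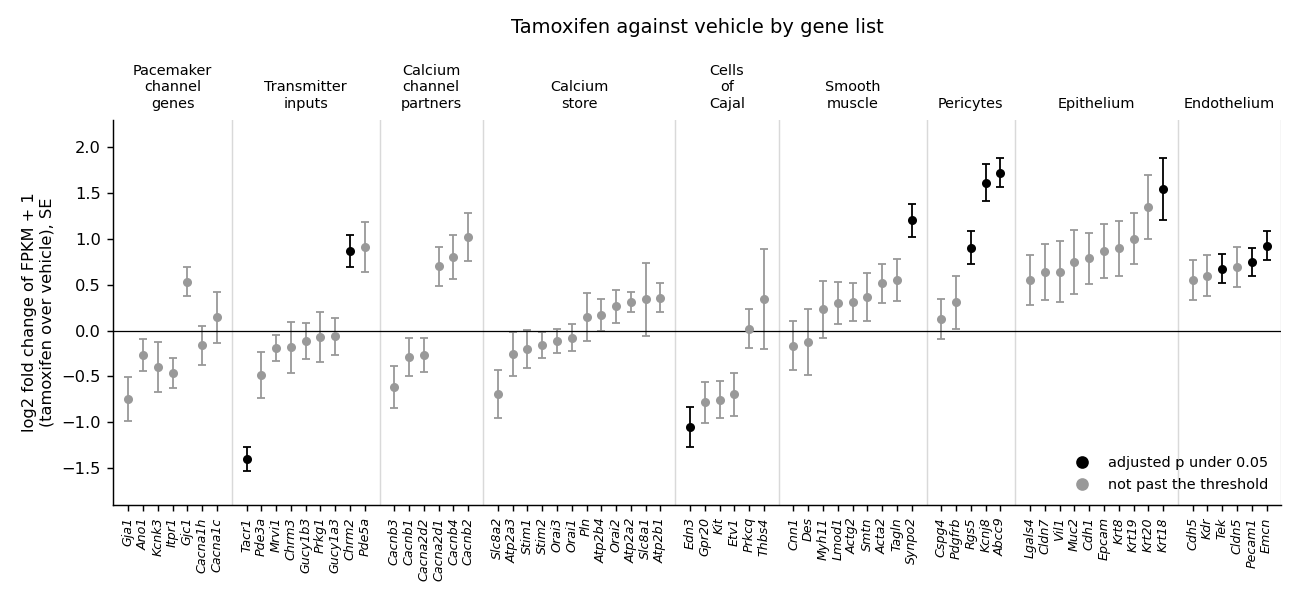
Log2 fold change of FPKM + 1 (tamoxifen over vehicle) with its SE for the tested genes of 9 lists. Black points passed the threshold of adjusted p under 0.05 and grey points did not. The 7 pacemaker channel genes are grey, Tacr1 fell, Chrm2 rose, and the tested markers of epithelium, endothelium and pericytes lie above 0.

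Several of the 8 genes are also expressed by other cells of the gut, and some markers of those cells differed between groups. The counts below stand beside 2.38% of all tested genes that rose past the threshold and 3.07% that fell. Markers of the interstitial cells of Cajal summed to 690.2 to 1010 FPKM with tamoxifen and 1079 to 1611 FPKM with vehicle. The list includes Etv1, the targeted gene, and Kit and Edn3 make up most of the sum. Of these 6 markers, 1 fell past the threshold, the endothelin gene Edn3 (187 ± 49.9 and 383 ± 75.3 FPKM, adjusted p = 0.0333). The change was negative in 4 of the 6, but positive in Thbs4 (24.7 ± 18.3 and 15.1 ± 3.79 FPKM) and Prkcq (36.8 ± 8.01 and 36.3 ± 8.25 FPKM). Edn3 did not pass when any 1 library other than tamoxifen tumor 1 was left out (adjusted p up to 0.0903). Epithelial markers, whose cells use Slc12a2 and Gja1, summed to 1950 to 4257 FPKM with tamoxifen and 1109 to 2023 FPKM with vehicle, and 1 of 10 rose, the keratin Krt18. Pericyte markers summed to 109 to 167 FPKM with tamoxifen and 62.6 to 72.3 FPKM with vehicle, with 3 of 5 rising: the potassium channel subunit genes Abcc9 and Kcnj8 (log2 fold changes 1.72 and 1.62, adjusted p = 0.00463 and 0.0074) and Rgs5. Endothelial markers summed to 68.2 to 93.8 FPKM and 40.7 to 51.1 FPKM, with Pecam1, Emcn and Tek rising, 3 of 6. Smooth muscle markers, whose cells use Gjc1, Cacna1c and Itpr1, summed to 366 to 471 FPKM and 220.5 to 411 FPKM, and 1 of 9 tested rose, the actin-binding gene Synpo2 (35.1 ± 7.68 and 14.6 ± 2.68 FPKM, adjusted p = 0.0122). Of 6 leukocyte markers, the neutrophil genes S100a8 and S100a9 rose (log2 fold changes 3.81 and 3.28, adjusted p = 0.014 and 0.0165) and the T cell gene Cd3e fell (-1.12, adjusted p = 0.00653). With scaling to the same total, Edn3, Synpo2, Pecam1, Emcn, Tek and Rgs5 did not pass, whereas Abcc9, Kcnj8, Krt18, S100a8, S100a9 and Cd3e did. Pecam1, Tek, Krt18 and Rgs5 also each failed to pass when any of several single libraries was left out, with adjusted p up to 0.102, 0.131, 0.109 and 0.085. Emcn did not pass without vehicle tumors 3 or 4 (0.0586 and 0.0569). Epithelial, smooth muscle, fibroblast, leukocyte, neuron and glia sums overlapped between groups, no fibroblast, neuron or glia marker passed, and no marker of any list was at 0 in every library. The part of these cells in the values of Gja1, Itpr1 and Gjc1 was not tested.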

How the data were processed

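RNA was sequenced from 4 tamoxifen and 4 vehicle tumors, grouped by sample title. The deposited table holds gene-level FPKM with confidence bounds and a status word for each library, per the file headers. STAR 2.3, Cuffdiff, Cufflinks and the mm9 build are named in the submitters' processing notes. What each tool did, the annotation and the strandedness are not stated. Libraries were matched through the identifier of each description, with 0 columns unmapped.

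The 178 failed values, listed at 0 FPKM, were treated as missing. Rows of 1 symbol were summed. Genes with a mean of at least 1 FPKM and 2 estimates a group were tested, 15023 in all. Groups were compared on log2(FPKM + 1) with limma 3.58.1 in R 4.3.3 (mean-variance trend, 2-sided), with Benjamini-Hochberg adjustment over all tested genes and a threshold of 0.05. In simulated data for 14975 genes of this comparison, 65% of changes of 1 and 92% of changes of 2 on the log2 scale were recovered, and 8 of 165 calls were false. Changes were placed only in genes with a mean log2(FPKM + 1) above 2, which Cacna1h and Cacna1c do not reach. No change smaller than 1 was simulated, so recovery of the smaller changes reported here is unknown. Shares were compared by exact permutation. The genes and lists were chosen with earlier results of these data known. Named genes are the 8, Kit and Etv1, and from each list up to 4 genes past the threshold and the 2 highest, plus for each gene the 2 most similar in pattern. Intervals cover the spread between libraries. Alternatives were other pseudocounts, filters and scalings, failed values as 0, a replicate block, the identifier range as a covariate, quality weights and leaving out each library.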

Additional observations from a re-analysis of the deposited data

Results flagged for a closer look

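A library was looked at again when its gap to the nearest of its group exceeded Dixon's 95% limit for 4 values, which chance gives in about 1 of 20 groups. This held for 12 values among 116 groups of 4 libraries. Tamoxifen tumor 1 was low in the Kcnk3 share of two-pore potassium channels, at 54.6% against 69.6% to 71.9% in the other tamoxifen tumors. Among paralogs of the pacemaker genes, Ano6 was 53.7 FPKM in tamoxifen tumor 4 against 69.2 to 70.6 FPKM, and Itpr3 was 6.94 FPKM in vehicle tumor 4 against 4.04 to 4.23 FPKM. The calcium channel subunit gene Cacnb3 was 20.4 FPKM in vehicle tumor 2 against 29.6 to 30.1 FPKM, and Kcnh2 was 86.1 FPKM in tamoxifen tumor 3 against 43.7 to 47.5 FPKM. Among markers, tamoxifen tumor 4 was high in Krt18 (147 FPKM against 53.7 to 61.3) and Krt19 (738 FPKM against 333 to 381), and vehicle tumor 3 was low in Krt19 (156 FPKM against 226 to 238). Rgs5 was 127 FPKM in tamoxifen tumor 1 against 72.7 to 81.7 FPKM. Vehicle tumor 2 was high in Abcc9 (4.32 FPKM against 2.55 to 2.65) and Emcn (13.2 FPKM against 11.3 to 11.5), and vehicle tumor 4 in Tek (3.21 FPKM against 2.35 to 2.48).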

How the results depend on the processing

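The direction of Gja1, Itpr1, Gjc1, Ano1 and Kcnk3 held in 18 of 18 alternatives and that of Cacna1h in 17 of 17. Cacna1c turned to -0.08 without vehicle tumor 1, and without tamoxifen tumor 1 Kcnk3 was -0.17 and Cacna1h -0.01. The number of pacemaker genes past the threshold was 0 to 1 with 1 library left out, the 1 being Gjc1 without tamoxifen tumor 4, and 0 in the 10 other alternatives, where adjusted p reached 0.0583 for Gja1, 0.07 for Gjc1 and 0.0702 for Itpr1 with libraries weighted by quality. Over all genes, 819 were called (358 higher and 461 lower), against 534 with a mean of at least 5 FPKM. Scaling to the same total gave 229 (154 higher and 75 lower), whereas median-ratio scaling gave 843 (366 higher and 477 lower). Summed FPKM was 1662241 in vehicle tumor 1 and 901764 to 1310578 in the other libraries. Calls numbered 252 with the replicate block, 990 with the identifier range as a covariate, 1207 with quality weights and 268 to 856 with 1 library left out. The replicate block tested numbers that do not pair the samples: same-numbered libraries correlated at -0.156 to 0.145, above 0.1 in 1 of 4 pairs. Under the block, adjusted p was 0.14 for Gja1, 0.119 for Gjc1 and 0.195 for Itpr1, and Chrm2, Edn3, Synpo2, Pecam1, Emcn, Tek and Rgs5 lost their calls (0.0522 to 0.0935). The sample identifiers fall into a range of 5 libraries and a range of 3. In the first, Gja1 was 882 and 571 FPKM with tamoxifen against 989.6, 1479 and 1466 FPKM with vehicle, and in the second 888 and 574 against 958 FPKM. With 1 library left out, the differences in share ran from -2.57 to -1.24 percentage points for Ano1, -12.0 to -7.42 for Itpr1, -5.58 to -4.55 for Gja1, -11.7 to -4.57 for Kcnk3, -2.76 to -0.926 for Cacna1h, -0.664 to 0.695 for Cacna1c and 3.04 to 3.40 for Gjc1. The causes of these shifts were not tested. Low levels limit Cacna1h and Cacna1c, and failed estimates limit Slc12a2.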
